A study of Homo sapiens with 2 samples.

Results

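Among the 5186 genes with a peak of PTBP1 over IgG named for them in MKN-28 cells, 122 carried a ZNF symbol. They were chosen by name alone, as every symbol of the mRNA peak list that begins with ZNF and a number, and 1 of them is the read-through symbol ZNF559-ZNF177. Together they held 179 of the 8479 peaks of that list, in 180 pairs of a gene and a peak. RNA immunoprecipitation followed by sequencing (RIP-seq) pulls down a protein with an antibody and sequences the RNA that comes with it. MKN-28 is a cell line labelled as gastric cancer, its cells carried no treatment, and the study had 1 library pulled down with an antibody to PTBP1 and 1 with normal rabbit IgG as the negative control. Each peak has a fold enrichment of PTBP1 over IgG, a count of sequenced tags inside it, a class by position and 1 or more RefSeq transcripts.

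ZNF genes encode zinc finger proteins, most of them of the C2H2 kind, in which a string of fingers, each held by a zinc ion, reads a DNA sequence. The largest group also carries a KRAB domain, which recruits the corepressor TRIM28 and, through it, the histone methyltransferase SETDB1 to silence transposable elements and genes. Many of these genes arose by tandem duplication and lie side by side, above all on chromosome 19, and the finger array is typically encoded in a single long last exon. PTBP1 is an RNA-binding protein that prefers pyrimidine-rich stretches and controls splicing, stability and translation of its targets. The symbol is not a structural class. ZNF185 encodes a LIM domain protein of the actin cytoskeleton, and the symbol ZNF720 has since been replaced by KRABD5 in RefSeq.

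With 1 library per antibody, no difference could be tested against replicate spread. Shares are given with 95% Wilson intervals, which cover the counting of genes or peaks only. The totals of the libraries and the tags of IgG in each peak are not in the files used here, the header does not say which library the tags come from, and so depth is unknown and a fold has no interval. The deposited false discovery rates of the ZNF peaks lay between 43.1% and 100%, with 2 peaks at 100%, so a single peak is a weak call. As a check on the cell type, 2 of 11 epithelial and gastric markers had a peak (MUC1 and CLDN18), as did 1 of 7 markers of other cell types (COL1A1), and EPCAM, CDH1 and the keratins KRT8, KRT18 and KRT19 had none, so peaks alone did not identify the cells.

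ZNF genes had peaks about as often as coding genes at large. Of 517 protein-coding ZNF genes in the RefSeq annotation, 121 (23.4%, 20 to 27.2) had a peak named for them, against 25.7% of all 20056 protein-coding genes. A peak that shared at least 1 base with the gene's own transcript was found for 93 of the 517 (18.0%, 14.9 to 21.5), against 17.9% of all. ZNF720 was the 1 member without a match by symbol in this annotation. Among genes that had a peak at all, 94 of the 122 ZNF genes (77.0%, 68.8 to 83.6) had one overlapping the transcript, against 69.6% of the genes in the list.

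Most ZNF peaks rested on few tags. The median peak held 11 tags (quartiles 7 and 22, range 6 to 650), against 13 for all other peaks, and 128 of 179 (71.5%, 64.5 to 77.6) held fewer than 20 tags, against 63.3% (62.2 to 64.3). A peak of at least 20 tags was present in 43 of 122 members (35.2%, 27.3 to 44.1), below the 47.1% of all listed genes. Fold enrichment had a median of 7.46 per peak (quartiles 5.31 and 10.44, range 2.27 to 40.49), against 7.05 elsewhere. Taking the highest fold of each gene, the median was 8.21 (interval 7.66 to 9.2) for ZNF genes and 7.96 for all genes. A best fold of at least 10 was reached by 43 members (35.2%, 27.3 to 44.1), against 32.9% of all genes.

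High folds went with low tag counts. Of the 43 members with a best fold of at least 10, the best peak held fewer than 20 tags in 40, and it overlapped the transcript in 30. The matching counts over all listed genes were not made, so these describe the members only. The fold never exceeded 1.84 per tag in any peak of the list, and 18 ZNF peaks (10.1%) lay on that limit within 0.02 of their fold, against 7.7% of the others. Best folds were also heavily tied, on and off that limit, and 16 members share 11.04 and 11 share 12.88. At the other end, the 12 ZNF peaks of 100 or more tags had a median fold of 4.06. In 29 of the 38 members with 2 or more peaks, the peak with the highest fold was not the peak with the most tags. Any ranking of these genes therefore depends on which of the 2 values is used. This count was not made for other genes.

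**Figure D1:**
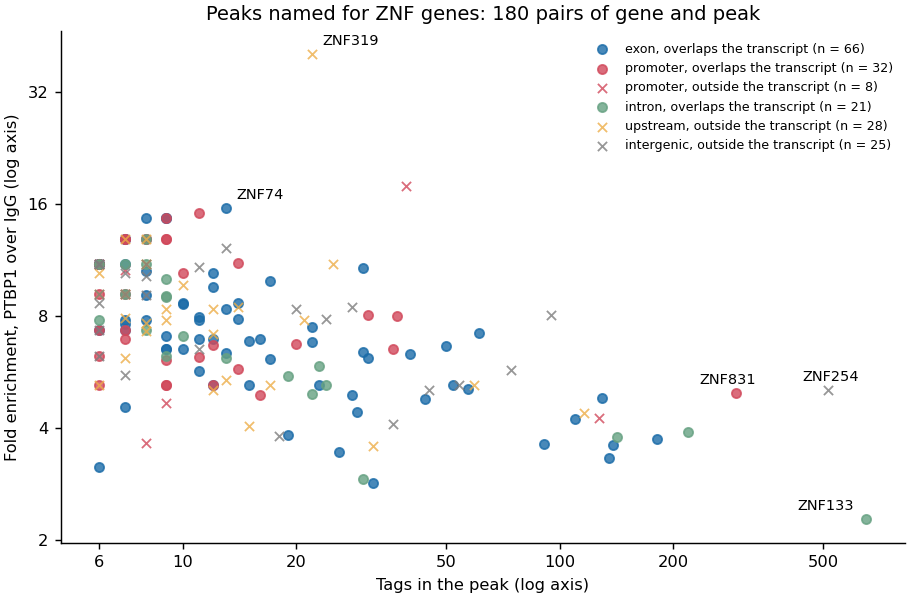
Fold enrichment of PTBP1 over IgG (vertical, log axis) against tags in the peak (horizontal, log axis) for the 180 pairs of a ZNF gene and a peak. Colour gives the class, circles overlap the gene's transcript and crosses lie outside it. Most points crowd at the left between 6 and 20 tags, and the peak with the most tags, at ZNF133, has the lowest fold, 2.27.

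The highest fold among the ZNF symbols did not lie on a ZNF gene. ZNF319 was given 4 peaks on chromosome 16, with folds of 40.49, 17.98, 6.19 and 4.66 on 22, 39, 7 and 9 tags. The peaks at 40.49 and 17.98 had deposited false discovery rates of 100% and 94.85%. All 4 lie before its transcript start, 475 to 15914 bases away, and all 4 fall inside USB1, which encodes an exonuclease that trims the end of U6 small nuclear RNA and is read in the opposite direction. Each of them is also listed for USB1 or for MMP15, a membrane-bound matrix metalloprotease. Without ZNF319, the largest best fold belonged to ZNF74, a KRAB zinc finger gene of the DiGeorge region on chromosome 22, whose exon peak at chr22:20762152-20762681 in hg19 had a fold of 15.66 on 13 tags.

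Next in order came ZNF596, with a fold of 15.15 on 11 tags in a promoter-class peak, and then a tie at 14.72 of ZNF2, ZNF510, ZNF706 and ZNF805, on 8 or 9 tags each. ZNF254, ZNF260 and ZNF543 were the first named of the tie at 12.88, on 7, 7 and 9 tags. With 7 to 11 tags a peak, the order among these 8 genes is not resolved. All of them overlapped their transcripts with these best peaks.

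The peaks with the most tags named other genes, apart from ZNF254. ZNF133, a KRAB zinc finger gene on chromosome 20, had 650 tags in an intron peak of 368 bases, with a fold of 2.27. ZNF254 had 514 tags at a fold of 5.07, but in an intergenic peak 31793 bases before its start. ZNF831 followed with 293 tags at 4.96, in a peak of 4432 bases that covers its start and is the longest of the ZNF peaks. ZNF609, a gene known for its circular RNA, had 219 tags at 3.91 in an intron peak. ZNF672 had 181 tags at 3.73 in an exon peak. Below it stood ZNF467 with 142 at 3.79, ZNF184 138 at 3.61, ZNF217 135 at 3.33, ZNF703 129 at 4.82 and ZNF584 127 at 4.25. The most-tag peaks of these 10 genes therefore had folds from 2.27 to 5.07, all under the median of the ZNF peaks. The best folds of the same genes reached 12.88, in ZNF254.

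By class, ZNF peaks were spread much as other peaks were. Exon peaks were the largest class with 66 of 179 (36.9%, 30.1 to 44.1), against 32.3% (31.3 to 33.3) of all other peaks. Promoter-class peaks, whose centre lies within 1999 bases of a start, made up 39 (21.8%, 16.4 to 28.4), against 20.9%. Intron peaks were 21 (11.7%, 7.8 to 17.3) against 15.2%, upstream peaks 28 (15.6%, 11 to 21.7) against 16.4%, and intergenic peaks 25 (14.0%, 9.64 to 19.8) against 15.3%. Each ZNF share held the value of the other peaks inside its interval. Median folds by class ran from 6.96 for exon peaks to 8.35 for intergenic peaks, and median tags from 9 in promoter and intron peaks to 12.5 in exon peaks.

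**Figure D2:**
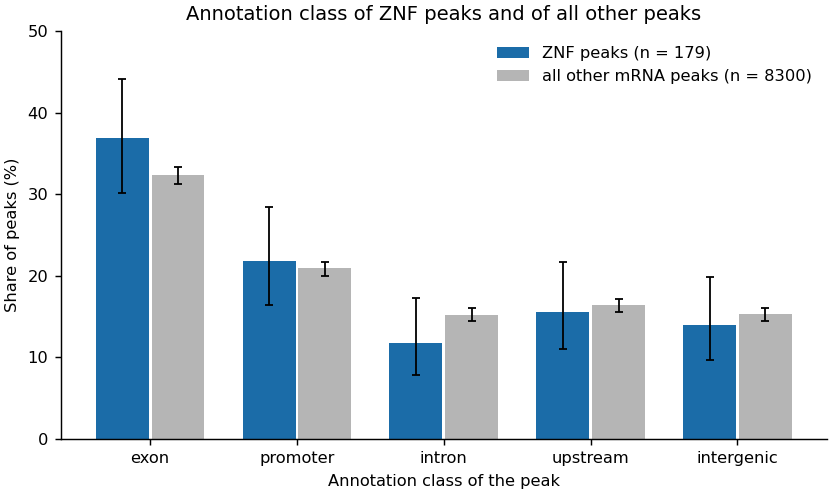
Share of peaks in each annotation class (vertical, percent) for the 179 ZNF peaks (blue) and the 8300 other peaks of the mRNA list (grey). Whiskers are 95% Wilson intervals, and in each class the grey share lies inside the ZNF interval.

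Whether a peak touches the gene it is named for is largely set by its class, since the classes are given by position. All 66 exon and all 21 intron pairs overlapped the listed transcript, 32 of 40 promoter-class pairs did, and none of the 28 upstream and 25 intergenic pairs did. In all, 119 pairs overlapped and 61 did not. Of the 61, 41 lay before the start and 20 past the end, at 100 to 57876 bases. There were 8 of them inside another listed gene. Besides the 4 of ZNF319, the peak named for ZNF140 lies in its neighbour ZNF84 and that of ZNF177 in the read-through ZNF559-ZNF177. That of ZNF282 lies in ZNF398 and that of ZNF385A in LOC102724050. The matching counts over other peaks of the list were not made, so these counts of pairs describe the ZNF symbols only.

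The 28 members with no overlapping peak were ZNF41, ZNF43, ZNF44, ZNF77, ZNF91, ZNF140, ZNF177, ZNF185, ZNF207, ZNF319, ZNF385A, ZNF480, ZNF492, ZNF501, ZNF512B, ZNF544, ZNF546, ZNF557, ZNF575, ZNF584, ZNF607, ZNF616, ZNF644, ZNF676, ZNF701, ZNF735, ZNF787 and ZNF800. ZNF91, a KRAB protein known to silence SVA elements, had its peaks of 25 and 14 tags 5127 and 7842 bases before the start, at folds of 11.04 and 8.46. For ZNF43, its relative on chromosome 19, the peak of 6 tags lay 1304 bases before the start. ZNF546 had 95 and 45 tags in peaks 2370 and 3844 bases past its end. The first had a p score (-10 times the log10 of the caller's p-value) of 238.14, the second highest among the ZNF peaks after the 347.22 of ZNF319. The peaks with these scores both had a deposited false discovery rate of 100%, the highest among the ZNF peaks.

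Exon peaks belonged to 53 genes. By fold, among those of at least 20 tags, they were led by ZNF689 with 10.77 on 30 tags, ZNF2 with 7.46 on 22, ZNF805 with 7.19 on 61, ZNF142 with 6.83 on 22 and ZNF629 with 6.67 on 50. After these came ZNF24, a SCAN domain protein, with 6.42 on 30 tags, then ZNF655 and ZNF641, both at 5.22 on 52 and 23 tags, ZNF609 with 5.09 on 57 and ZNF211 with 4.91 on 28. The other genes with an exon peak were ZNF23, ZNF74, ZNF75D, ZNF124, ZNF143, ZNF148, ZNF160, ZNF184, ZNF189, ZNF202, ZNF217, ZNF260, ZNF273, ZNF280D, ZNF282, ZNF292, ZNF311, ZNF316, ZNF324B, ZNF362, ZNF414, ZNF416, ZNF426, ZNF444, ZNF445, ZNF460, ZNF462, ZNF510, ZNF540, ZNF558, ZNF574, ZNF585A, ZNF597, ZNF605, ZNF621, ZNF672, ZNF674, ZNF684, ZNF695, ZNF703, ZNF706, ZNF749 and ZNF777. ZNF445, which maintains imprints in the embryo, and ZNF202, a SCAN and KRAB repressor of lipid genes, each had 1 exon peak, of 11 and 7 tags.

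Along the gene, fewer ZNF exon peaks lay in the last 10% of the transcript than in other genes, 14 of 66 (21.2%, 13.1 to 32.5) against 35.5% (33.7 to 37.3), and these intervals did not overlap. In the last 20% the shares were 42.4% (31.2 to 54.4) and 47.9% (46.0 to 49.8), with intervals that did. The medians were alike, 76.8% of the way from start to end for ZNF genes and 77.2% for the others. Further stretches were picked after the distribution was seen and only describe it. From 60% to 90% of the way lay 39 of 66 ZNF exon peaks (59.1%, 47.0 to 70.1) and 28.7% (27.0 to 30.4) of the others. Peaks in the first 50% of the gene were 11 of 66 (16.7%, 9.57 to 27.4) against 26.9% (25.2 to 28.6).

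The genes differ in length, so the same peaks were also measured in bases, a choice made after the percentages were seen. The median distance from peak centre to transcript end was 3200 bases (quartiles 1590 and 7150) for ZNF exon peaks and 8250 (1880 and 27700) for others. Within 6 kb of the end lay 46 of 66 (69.7%, 57.8 to 79.4) against 45.0% (43.1 to 46.9), and within 1 kb 13.6% (7.34 to 23.9) against 15.2% (13.9 to 16.6). The transcripts that carried exon peaks had a median span of 18.9 kb for ZNF genes and 50.5 kb for others, and the share of that difference in the positions was not tested.

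**Figure D3:**
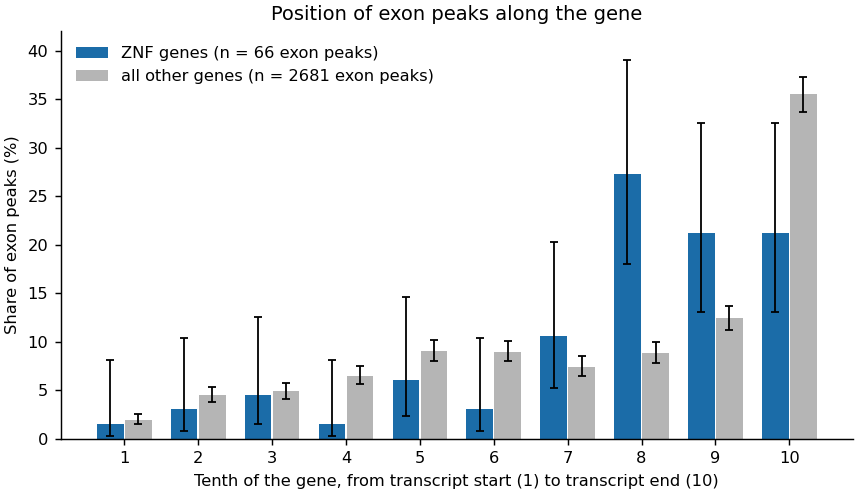
Share of exon peaks (vertical, percent) in each of 10 equal parts of the gene from transcript start to end (horizontal), for 66 exon peaks of ZNF genes (blue) and 2681 of other genes (grey), with 95% Wilson intervals. The blue bar is tallest in part 8, at 27.3%, where the grey bar is 8.84%, and in part 10 the grey bar is taller, at 35.5% against 21.2%.

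Several ZNF genes had more than 1 exon peak in a row. There were 11 such genes, and in 9 of them the exon peaks lay within 1.77 to 5.1 kb. The share of other genes with more than 1 exon peak was not computed, so such runs cannot be called particular to ZNF genes. ZNF142 had 3 on chromosome 2, with 14, 22 and 40 tags and folds of 8.68, 6.83 and 6.32 in the order of transcription, separated by 40 to 360 bases and together spanning 3.07 kb, and another peak of 11 tags began 297 bases past its end. ZNF805 had 3 over 5.1 kb, with 61, 7 and 7 tags and folds between 7.19 and 7.83. ZNF689 had a pair of peaks 54 bases apart with 31 and 30 tags and ZNF749 a pair 64 bases apart with 10 and 17 tags. ZNF2, ZNF160, ZNF426, ZNF605 and ZNF706 had pairs 816 to 1791 bases apart. In ZNF316 and ZNF148 the 2 exon peaks were far apart, by 9795 and 79406 bases. Peaks of such a run come from 1 transcript and are not independent of each other.

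Promoter-class peaks were named for 39 ZNF genes. Of the 40 pairs, 29 had the peak centre after the start and 11 before it, 11 peaks covered the start itself, and 22 centres lay within 500 bases of it. The largest by tags were those of ZNF831 (293), ZNF584 (127, outside the transcript), ZNF319 (39, outside), ZNF696 (37), ZNF322 (36), ZNF250 (31) and ZNF837 (20), and each of the others had fewer than 20. Among these others, ZNF354B, ZNF431 and ZNF771 had a fold of 12.88 on 9, 8 and 8 tags, ZNF720 had 11.12 on 14 and ZNF627 10.44 on 10. ZNF710 and ZNF79 lay lower, at 7.36 and 5.22 on 6 tags each. The 8 pairs outside the transcript belonged to ZNF43, ZNF397, ZNF460, ZNF584, ZNF689, ZNF787 and, with 2, ZNF319. Promoter-class peaks of ZNF319, ZNF408 and ZNF559 are also listed for another mRNA symbol, USB1, ARHGAP1 and ZNF559-ZNF177.

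The peaks of ZNF264, ZNF543, ZNF134 and ZNF254 reached into the window around the start and had the highest folds among the 7 genes whose deposited transcript span matched the RefSeq gene length within 50 bases. Their start regions are shown because these peaks lie at a listed transcript start. In each line 250 bases before the start are followed by the first 50 bases after it, 5′ to 3′ on the gene's strand, from RefSeq on GRCh38.p14, and capitals mark TCTT, a short pyrimidine motif bound by PTBP1.

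ZNF264: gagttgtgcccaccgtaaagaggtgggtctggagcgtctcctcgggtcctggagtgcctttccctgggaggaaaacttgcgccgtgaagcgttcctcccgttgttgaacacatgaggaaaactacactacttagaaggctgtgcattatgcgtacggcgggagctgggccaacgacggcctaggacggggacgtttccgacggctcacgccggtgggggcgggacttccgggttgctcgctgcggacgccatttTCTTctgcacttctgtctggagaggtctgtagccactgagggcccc

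ZNF543: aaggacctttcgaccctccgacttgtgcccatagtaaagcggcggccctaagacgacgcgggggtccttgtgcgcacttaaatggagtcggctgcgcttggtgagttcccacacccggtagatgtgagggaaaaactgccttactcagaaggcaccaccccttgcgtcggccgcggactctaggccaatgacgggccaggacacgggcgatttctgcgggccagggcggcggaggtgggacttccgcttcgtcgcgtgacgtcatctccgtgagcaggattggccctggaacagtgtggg

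ZNF134: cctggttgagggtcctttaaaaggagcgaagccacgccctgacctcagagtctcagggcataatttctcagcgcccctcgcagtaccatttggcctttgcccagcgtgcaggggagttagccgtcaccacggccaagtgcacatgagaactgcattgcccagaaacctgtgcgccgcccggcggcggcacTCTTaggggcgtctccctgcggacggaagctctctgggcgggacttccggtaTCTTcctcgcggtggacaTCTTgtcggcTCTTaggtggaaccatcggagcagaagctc

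ZNF254: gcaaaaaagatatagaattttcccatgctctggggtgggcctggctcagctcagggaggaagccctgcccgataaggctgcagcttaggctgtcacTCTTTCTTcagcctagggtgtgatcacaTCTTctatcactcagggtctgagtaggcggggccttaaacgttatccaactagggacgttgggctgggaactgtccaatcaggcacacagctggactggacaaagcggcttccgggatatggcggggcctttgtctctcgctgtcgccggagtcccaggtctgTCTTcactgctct

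The windows are chr19:57191250-57191549, chr19:57320222-57320521, chr19:57613992-57614291 and chr19:24086937-24087236 in the order shown, all on the forward strand. Counting from the listed hg19 start, the peaks began at base 44 after it for ZNF264 (6 tags, fold 9.2), 6 bases before it for ZNF543 (9 tags, 12.88), at its base 1 for ZNF134 (7 tags, 12.88) and at base 26 for ZNF254 (7 tags, 12.88). The windows use the RefSeq start on GRCh38.p14, which can differ from the listed hg19 start, and no coordinates were converted. Which part of a window lies in a peak, if any, was therefore not established. TCTT, overlapping copies included, occurs 1, 0, 4 and 4 times.

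Motifs were counted in the same windows for all genes. Of the 122 members, 104 have a window in the RefSeq table, and so have 30 of the 39 with a promoter-class peak. On the gene's strand TCTT was present in 19 of these 30 (63.3%, 45.5 to 78.1), in 63.8% of all annotated ZNF genes and in 56.4% of 15843 coding genes. TCTTC, which contains TCTT, was present in 12 (40%, 24.6 to 57.7), against 35.0% and 28.0%, and CTCTCT in 3 (10%, 3.46 to 25.6), against 11% and 12.2%. On either strand TCTT reached 70.0%, 79.4% and 78.7%. For the 3 motifs the intervals of the 30 genes held the shares of all coding genes, both on the gene's strand and on either strand. In 16 of the 30 the peak reached into the stretch from 250 bases before to 50 bases after a listed hg19 start. Of these, TCTT was present in 12 (75%, 50.5 to 89.8) and TCTTC in 7 (43.8%, 23.1 to 66.8). In the other 14 no promoter-class peak of the gene reached that stretch. Because no coordinates were converted, none of these counts shows a motif inside a peak. The median pyrimidine content of the 30 windows was 51.3%, against 50.7% and 49.7%, with no interval computed.

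Intron peaks, 21 in 17 genes, ranged from 6 to 650 tags. After ZNF133, ZNF609 and ZNF467, the most tags were the 30 of ZNF131 at a fold of 2.92, the 24 of ZNF195 at 5.22, the 23 of ZNF397 at 5.87 and the 22 of ZNF655 at 4.94. ZNF169, ZNF248, ZNF451 and ZNF655 had 2 intron peaks each. The highest intron fold was 12.88 on 8 tags, in ZNF451, which encodes a SUMO ligase, at a place that also holds LOC101927211. ZNF84, ZNF200, ZNF273, ZNF283, ZNF346, ZNF496 and ZNF831 had intron peaks of 6 to 10 tags.

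The upstream peaks, 28 in 22 genes, lay 2403 to 19518 bases before a start. The most tags were the 116 of ZNF701 at a fold of 4.39, 6171 bases before its start, and the 59 of ZNF282 at 5.22. ZNF543 had 3 in a row, with 12, 21 and 15 tags, between 14528 and 18857 bases before the start. Intergenic peaks, 25 in 19 genes, lay farther off or past the end. ZNF735 had 74 tags 65217 bases before its start and ZNF492 had 54 tags 26990 bases past its end. In 7 pairs the peak lay within 5 kb past the end, at ZNF460 (100 bases, 28 tags), ZNF142, ZNF44 (1496), ZNF546 (2370 and 3844), ZNF397 (2686) and ZNF501 (4961). No source used here states the strand of the libraries, so a peak past the end of a gene cannot be assigned to a longer transcript of it or to another one.

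Most members had a single peak, 84 of 122 (68.9%, 60.2 to 76.4), against 58.0% (56.6 to 59.3) of other genes. There were 26 with 2 peaks, 7 with 3, 4 with 4 and 1 with 7. ZNF706, a gene of a small single-finger protein on chromosome 8, had the 7. Its 2 exon peaks had 8 and 6 tags at folds of 14.72 and 3.15, and its other 5, of 6 to 13 tags and folds of 9.2 to 12.18, lay 21775 to 29537 bases past its end. The genes with 4 were ZNF142, ZNF319, ZNF543 and ZNF805, and those with 3 were ZNF124, ZNF273, ZNF397, ZNF460, ZNF655, ZNF689 and ZNF831.

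Chromosome 19 holds nearly as many annotated ZNF genes as all other chromosomes together, and a smaller share of them had peaks. There 46 of 250 (18.4%, 14.1 to 23.7) had a peak and 29 (11.6%, 8.2 to 16.2) one that overlapped the transcript. On all other chromosomes 75 of 267 (28.1%, 23 to 33.8) had a peak and 64 (24.0%, 19.2 to 29.4) an overlapping one. For overlapping peaks these intervals do not meet, and for all peaks they do. Coding genes other than ZNF also had fewer peaks on chromosome 19, 21.0% (18.8 to 23.4) against 26% (25.4 to 26.7), and fewer overlapping ones, 13.9% (12.1 to 16) against 18.2% (17.6 to 18.8). With at least 20 tags required, an alternative added after the data were seen, the ZNF shares were 6.0% (3.67 to 9.66) on chromosome 19 and 10.5% (7.36 to 14.7) elsewhere, and with overlap required as well 2.4% (1.1 to 5.14) and 8.61% (5.81 to 12.6). Paralogs in such gene groups can be alike in sequence, and no source used here states how reads matching several of them were counted, so values of single genes there are uncertain.

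Elsewhere, 4 of 6 ZNF genes on chromosome 11, 5 of 9 on chromosome 6 and 4 of 9 on chromosome 20 had a peak, against 1 of 17 on chromosome 10 and 1 of 11 on chromosome 17. None of the 8 on chromosome 4 or the 3 on chromosome 14 did. These counts are too small to order the chromosomes.

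**Figure D4:**
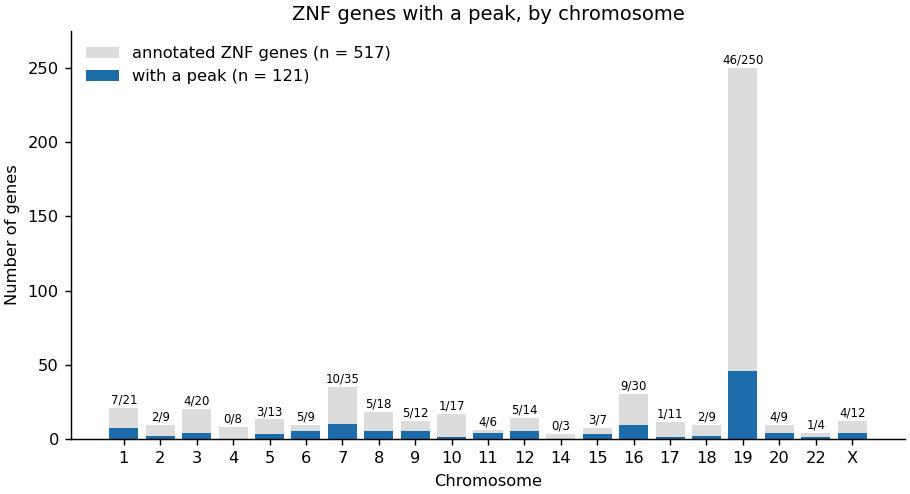
Number of annotated protein-coding ZNF genes (grey) and of those with a peak (blue) by chromosome, with both counts above each bar. Chromosome 19 has 46 with a peak of 250, and chromosome 7 has the next most, 10 of 35.

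Members with peaks formed 12 clusters, a cluster being 3 or more on a chromosome with less than 500 kb between neighbours. They held 49 of the 122 genes, 31 of them in 7 clusters on chromosome 19, and 72 genes were outside, the read-through symbol not being placed. The largest, near the right end of chromosome 19 at chr19:57702867-58155414 in hg19, spans 453 kb with ZNF264, ZNF805, ZNF460, ZNF543, ZNF749, ZNF416, ZNF134 and ZNF211. All 8 had a peak that overlapped their transcript, the RefSeq order holds 18 ZNF genes between the same ends, and the 17 peaks were 8 exon, 5 promoter, 3 upstream and 1 intergenic. Best folds ran from 4.91 in ZNF211 to 14.72 in ZNF805, and tags from 6 to 91, the 91 in an exon peak of ZNF460. Exon peaks were found in 5 of the 8 and, in ZNF264, ZNF134 and ZNF543, the overlapping peak was at the start instead.

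The next cluster on chromosome 19, over 1345 kb, had peaks named for 5 of 30 annotated genes, and in only 2 of them, ZNF160 and ZNF761, did one overlap. ZNF616, ZNF480 and ZNF701 had upstream peaks. On chromosome 7 all 5 of ZNF398, ZNF282, ZNF777, ZNF467 and ZNF862 had an overlapping peak, of 8 annotated over 720 kb, with best folds of 3.79 to 6.96. On chromosome 16 all 4 of ZNF771, ZNF764, ZNF689 and ZNF629 did, of 8 over 380 kb, with 5.76 to 12.88. In the chromosome 19 group of ZNF559, ZNF177, ZNF426 and ZNF561, 3 of 4 overlapped, of 8 over 297 kb.

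Of the remaining 7 clusters, 2 had 4 genes, both on chromosome 19. ZNF627, ZNF441, ZNF700 and ZNF44 had 3 genes with an overlapping peak, and ZNF544, ZNF837, ZNF584 and ZNF324B had 2. On chromosome 19 the groups of 3 were ZNF43, ZNF676 and ZNF492, none with an overlapping peak, and ZNF585A, ZNF540 and ZNF607, with 2. On chromosome 1 ZNF695, ZNF124 and ZNF496 all overlapped, as did ZNF213, ZNF200 and ZNF597 on chromosome 16, and 2 of ZNF605, ZNF84 and ZNF140 did on chromosome 12. Where only genes with an overlapping peak were placed, 7 clusters were left.

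**Figure D5:**
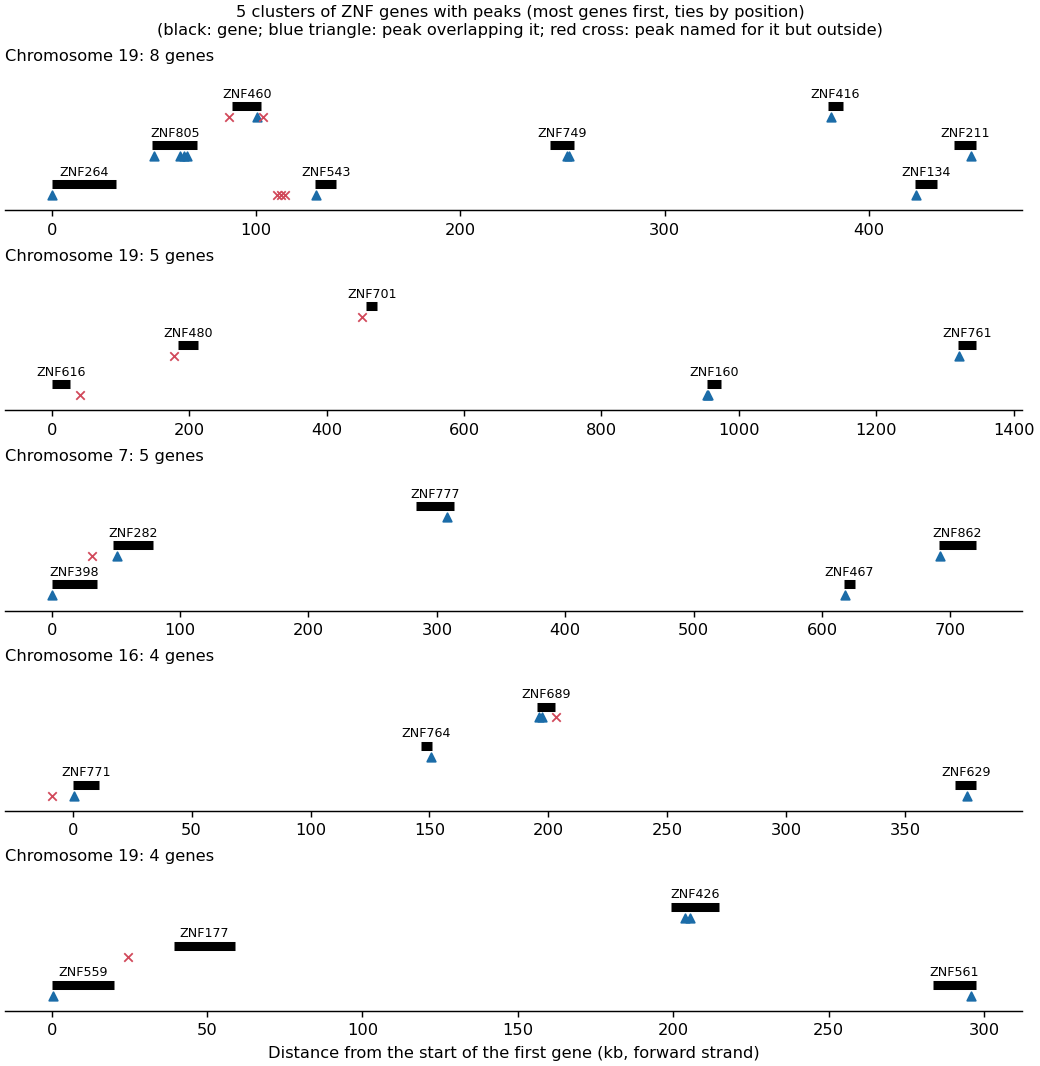
Maps of 5 clusters of ZNF genes with peaks, the 3 with most genes and the first 2 by position of the 4 tied at 4 genes, as distance from the start of the first gene (horizontal, kb). Black bars are listed transcripts, blue triangles mark peaks that overlap the gene they are named for, and red crosses mark peaks named for a gene but outside it. In the top map all 8 genes have a triangle, and in the second 2 of 5 do.

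A separate list of 32 ZNF genes was drawn up for roles other than KRAB repression. It is not free of KRAB proteins, since ZNF224, ZNF268, ZNF304 and ZNF350, all without a peak, are on it. Of the 32, 10 had a peak (31.2%, 18.0 to 48.6) and 9 an overlapping one (28.1%, 15.6 to 45.4), beside 23.4% and 18.0% of all annotated ZNF genes. The exon peaks with most tags in this list were in ZNF217, a transcriptional regulator amplified in breast cancers (135 tags, fold 3.33), and ZNF703, a corepressor of luminal breast cancers (129 tags, 4.82). ZNF148, which binds GC-rich promoters, had 44 and 32 tags at 4.78 and 2.85. ZNF462, a gene of neural development, had 11 tags at 7.94. ZNF143, an activator of small nuclear RNA genes, had 7 at 4.55, and ZNF280D had 6 at 11.04. ZNF346, which binds double-stranded RNA, had an intron peak of 6 tags at 7.83, and ZNF451 intron peaks of 8 and 19 tags. ZNF207, which loads BUB3 on kinetochores, had its only peak, of 8 tags, 7435 bases past the end. The ribosome quality control ligase ZNF598 had none.

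The partners of KRAB repression had peaks in 7 of 21 genes (33.3%, 17.2 to 54.6), beside 25.7% of all coding genes, 5 of them overlapping. SETDB1 had 7 tags at a fold of 9.61 in an intron. RBBP7 had a best fold of 7.75 on 25 tags, RBBP4 6.88 on 9, SMARCAD1 5.22 on 26 and MTA2 4.4 on 37. The peaks of CHD3 and ATF7IP lay outside their transcripts, that of ATF7IP 110535 bases before the start with 176 tags. TRIM28, the heterochromatin proteins CBX1, CBX3 and CBX5 and the HUSH complex genes MORC2, MPHOSPH8, TASOR and PPHLN1 had no peak.

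Other zinc finger families stood on either side of the 25.7% of all coding genes. By symbol, 11 of 21 ZC3H genes (52.4%, 32.4 to 71.7), which encode CCCH fingers that often bind RNA, and 10 of 18 KLF genes (55.6%, 33.7 to 75.4) had a peak, as had 11 of 24 ZDHHC palmitoyltransferases (45.8%, 27.9 to 64.9), and these intervals lie above that value. The ZBTB pattern took 16 of 42 (38.1%, 25 to 53.2), among them ZBTB8OS, an opposite-strand gene by its name, whose 2 peaks lay outside it. ZSCAN and ZFP genes each had 4 of 21 (19%, 7.67 to 40), ZKSCAN 2 of 7, ZCCHC 5 of 13, ZMYM 3 of 6, ZMYND 1 of 6 and PRDM 5 of 15. The pattern for SP factors took 4 of 12, among them SP100 and SP110, which are not zinc finger factors of that family. The interval of the ZNF genes, 20 to 27.2, lies below those of ZC3H, KLF and ZDHHC and meets those of the other families.

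A second list, of peaks at noncoding RNAs, held 22 ZNF symbols with 36 peaks. Of these, 15 symbols were members as well, and their 23 pairs were the same peaks listed for a noncoding isoform, among them the exon runs of ZNF142 and ZNF689. The 127 tags of ZNF584 were the most in such a shared peak. ZNF689 showed 1 difference in placement, since its peak before the coding start overlapped a noncoding isoform. There were 2 antisense genes: ZNF337-AS1 had 69 tags at a fold of 4.89 in an intron and 7 tags at 12.88 before its start, and ZNF213-AS1 had the 12 tags at 6.68 that were also given to ZNF213. Without a stated strand, reads of ZNF213 and its antisense gene cannot be told apart. The pseudogene symbols ZNF192P1, ZNF204P and ZNF767P had 9 peaks, and those with most tags, 80 and 66 at folds of 10.44 and 6.52, lay before ZNF192P1. ZNF517 and ZNF519 were listed for noncoding RNA alone, each with 1 intron peak.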

How the data were processed

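RNA from an IgG and a PTBP1 immunoprecipitate of MKN-28 cells was sequenced after ribosomal RNA removal, 1 library per group. The submitters' processing notes name cutadapt 1.9.3, Bowtie2 2.2.4 and build hg19. No source used here states the peak caller, its settings or the strand of the libraries. The deposited lists give, for each peak and RefSeq transcript, the tag count in the peak as a whole number, not normalized. The authors also deposited the fold enrichment (a ratio of PTBP1 over IgG), a score of -10 times the log10 of the p-value and the false discovery rate in percent.

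Rows were reduced to 1 per symbol and peak, taking the longest transcript that the peak overlaps and otherwise the nearest start. Overlap means at least 1 shared base. Protein-coding genes, gene order and promoter windows came from RefSeq tables on GRCh38.p14, and no coordinates were converted. With 1 library per group no test was made. Counts, medians and Wilson intervals were computed in Python 3.11.15 with pandas 2.3.3 and scipy 1.17.1, and the overlap, position and interval code was tested on simulated data. Genes named with values were those with the 10 highest best folds, most peaks, most tags or highest folds of exon peaks of at least 20 tags, the members of the 5 clusters with most genes (ties by position), members on the list of other roles and members with 50 or more tags in a peak shared with the noncoding list; further names complete a class or count and were chosen after their values were seen. The members and all lists were chosen with earlier results of these data known. Alternatives were limits on fold, tags, p score and false discovery rate, other definitions of overlap, 1 peak per gene and other cluster gaps.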

Additional observations from a re-analysis of the deposited data

How the results depend on the processing

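The count of 122 ZNF genes with a peak fell to 43 (35.2%) with a fold of at least 10 and to 43 with at least 20 tags. Over all listed genes these limits left 32.9% and 47.1%. With a p score of at least 50 the 122 fell to 49. The 94 with an overlapping peak fell to 29 with at least 20 tags and to 33 with that p score. The p score limit, the limits on overlapping peaks and the changes in class shares and median fold below were computed for ZNF genes only. They are therefore not set against other genes. The promoter share moved from 21.8% to 13.7% with at least 20 tags, and the intergenic share from 14.0% to 9.02% with 1 peak per gene. The median best fold of 8.21 became 5.22 with at least 20 tags, 7.65 as the mean over a gene's peaks and 7.08 for the peak with the most tags. The 12 clusters became 7 where only genes with an overlapping peak were placed. The share of exon peaks in the last 10% of the gene, 21.2%, was 42.4% for the last 20%, a wider stretch by construction, against 47.9% in other genes. The causes of the other changes were not tested. No paired analysis was possible because each group had 1 library, and for the same reason none could be left out. The planned count of finger patterns in the proteins was not run. These values rest on 1 library per group, false discovery rates of 43.1% or more and few tags, with 71.5% of ZNF peaks under 20.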
